A study of Mus musculus with 36 samples.

Results

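Culture time was examined in secondary mouse embryonic fibroblasts (MEFs) that were kept without doxycycline, by setting 4 arrays of day 6 against 4 arrays of day 1, with 4 arrays of day 3 between them. These 12 arrays were chosen by their titles, out of 36 in the series, and all 42006 non-control probes of the array were examined. The series title names the question of the whole study, the role of Zscan4 in making induced pluripotent stem (iPS) cells. The secondary MEFs are labelled KOS-ZERT2, come from clone #1 and have a hybrid background of C57Bl/6 and 129, so they are 1 clone and all 3 days share it. They are fibroblasts of a second generation that carry inducible transgenes. The ERT2 part is a hormone receptor fragment controlled by tamoxifen, and doxycycline, which switches inducible transgenes on, was absent. On day 6, day 3 and day 1 alike, 2 arrays came from cultures labelled with tamoxifen (200 nM) and 2 from cultures labelled without it. The protocol of 1 day 1 sample labelled with tamoxifen, replicate 2, mentions none, and that of replicate 1 speaks of ES cells. The cells were plated on gelatin in embryonic stem (ES) cell medium with LIF, a cytokine that holds ES cells undifferentiated, and not in a usual fibroblast medium. Whether replicate arrays stand for separate dishes is not in the labels, and p-values therefore measure only how far these arrays spread, which may be technical. The levels of the transgenes and of Zscan4 were not analysed here.

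MEFs are connective tissue cells taken from embryos and are the usual starting cells for reprogramming. In culture they attach, secrete collagens, laminins and other matrix proteins, divide until the dish is full and then slow down. While they grow they make ribosomes, splicing factors and chromosome-segregation proteins in quantity. A culture without doxycycline is the baseline against which reprogramming is read.

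Each array carried culture RNA in Cy3 against a common reference RNA in Cy5, a pool of mouse cell lines mixed with ES cell RNA, with no dye swap. A level below is a log2 ratio of culture over reference, and a change is a difference between such ratios. In the culture channel, an array had 67.1% to 74.2% of its probes well above background. The number of arrays limits the precision. Changes in cell number cannot be told apart from changes in RNA per cell in bulk cultures. Each day lay on a slide of its own, day 1 was scanned on another day than days 3 and 6, and time and slide cannot be told apart in these 12 arrays. Values of the common reference channel are given beside the result below.

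The array files name no genes. A gene is named here only where at least 25 bases of the 60-base probe matched, without mismatch, a RefSeq promoter window of build GRCm38.p6 and at least 20 of them lay in the span of 1 annotated gene on the same strand. This placed 305 probes in 298 genes, 133 of them within 50 bases of the gene's annotated start. Matches outside the promoter windows, as in related genes or gene copies, were not searched, so a placed probe may also read other genes. None of the fibroblast markers listed for the check of the cell type (collagens, Vim, Thy1, Pdgfra and others) had a placed probe, so the label could not be checked by marker genes. It was checked with probes that differ between ES cells and untreated wild MEFs, on arrays of other cultures. Of 2574 probes at least 4-fold higher in wild MEFs than in ES cells (called MEF-high here), between 94.9% and 96.0% were nearer to the wild MEF level than to the ES level on the day 6 arrays, against 73.5% to 75.6% on the day 1 arrays. Of 1218 probes with the ES level at least 4-fold above wild MEFs (ES-high), 96.6% to 97.1% were nearer to wild MEFs on day 6 and 89.0% to 89.7% on day 1.

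The following stretches identify placed probes by their changes between day 6 and day 1. They are the 4 largest rises and 4 largest falls among the genes named below whose probe matched over all 60 bases. Lamb2, Snrpf, Dclre1b and Snu13 had larger changes than some of these but matched over fewer bases. Shown are the last 30 bases of each probe, 5′ to 3′, from the deposited files, with their place in RefSeq's GRCm38.p6. Capitals mark bases inside the annotated gene and lower case marks bases before its start. The first 4 rose and the other 4 fell.
Fam180a, chr6:35312995-35313024, minus strand: GGTGACCTACTTGACTTGGTGGAAATGCTA
Podxl2, chr6:88842740-88842769, minus strand: TGAGCGCCGGGCCACGGGCGCGAGACTGCC
Renbp, chrX:73922122-73922151, minus strand: AGGCTCGAAATAAAGATGACCCTGTTCCAC
Unc13b, chr4:43046244-43046273, plus strand: GTCCAGAAGGGCGGGGCTTTGGCTGACTAG
Rpl38, chr11:114668568-114668597, plus strand: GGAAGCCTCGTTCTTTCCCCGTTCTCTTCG
Fau, chr19:6057939-6057968, plus strand: ccccacttCTTCCTCTTTCTTGACTCCATC
Gnl3, chr14:31019000-31019029, minus strand: TTGAACCGCAGTTCCAGTTCGCACGTGGCG
Gm52042, chr13:25007707-25007736, plus strand: cggggataaGCTCGGGATACTTGGTGCCGA
The Renbp stretch holds AATAAA, the common polyadenylation signal, while the Fau and Gm52042 probes cross the annotated start of their genes. Whether a stretch is exonic, intronic or untranslated was not analysed here.

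Between day 1 and day 6 a large share of the array's probes changed even without doxycycline. Of 42005 probes tested, 10854 were higher and 10984 lower on day 6 than on day 1 at an adjusted p under 0.05 in limma, which is 52.0% of all, 25.8% higher and 26.1% lower. Most of these changes were small, and 14983 of the 21838 calls were under 1.5-fold. At 2-fold or more the balance shifted to rises, with 1780 probes higher (4.24%) and 908 lower (2.16%). Feature Extraction's ratios gave 3045 rises and 1961 falls of 2-fold or more. The series matrix, which holds fewer probes, gave 13987 calls in all, a larger share of its probes than the 52.0% above. A further fit of the 24 secondary MEF arrays had slide as a random block and 1 time effect shared by cultures with and without doxycycline, so it changed several choices together. This additive slide fit gave 12481 calls, and what part of the drop belongs to the slide was not tested. At 4-fold or more 314 rose and 47 fell, and at 8-fold or more 63 rose and 3 fell. In 9384 of the rising and 8818 of the falling calls the 4 day 6 values did not overlap the 4 day 1 values.

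The RNA pool in the reference channel was the same on every array, and its changes between the same slides were smaller. Tested alone by the same limma fit, the reference channel gave 1114 calls between day 6 and day 1, 2.65% of probes, and 39 of them reached 2-fold. The culture channel tested alone gave 20267 calls, 2560 of them of 2-fold or more. The median size of the log2 change between day 6 and day 1 was 0.14 in the culture channel and 0.05 in the reference channel, and its 99th percentile was 1.90 and 0.36. Of the 2688 probes called at 2-fold or more by the ratio, 53 had a reference that differed by 1.5-fold or more. The reference was read in the other dye, so it does not measure what slide and scan did to the culture channel, and it does not cover extraction and labelling of the culture RNA.

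**Figure D1:**
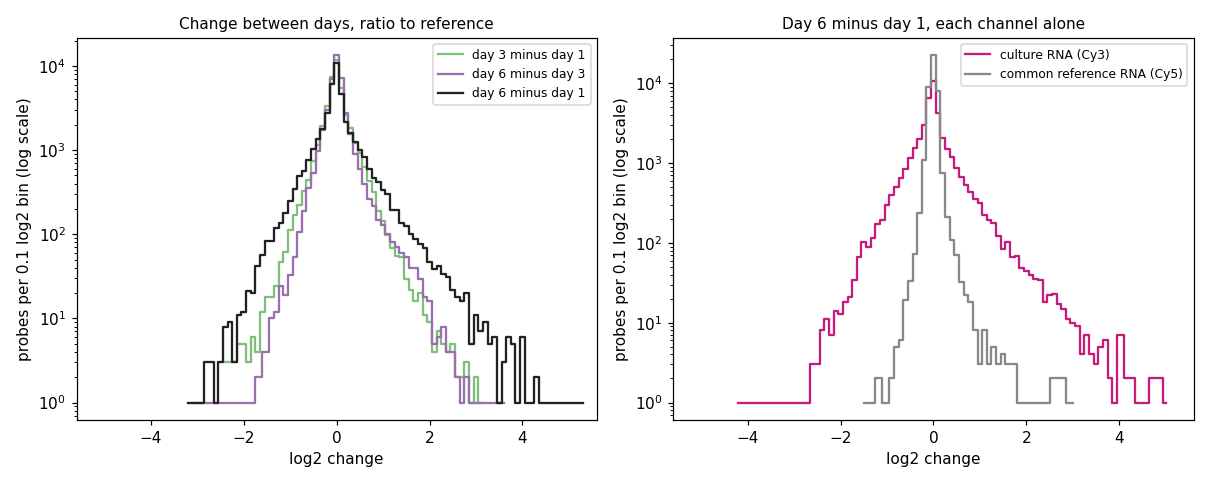
Left, number of probes (log axis) by log2 change of the ratio to reference between days; right, the same for day 6 minus day 1 in the culture channel and in the common reference channel, each alone. The culture channel spreads to a 99th percentile of 1.90 in size and the reference channel to 0.36, and the right tail of day 6 minus day 1 is longer than the left.

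2 arrays stood apart from the others of their day: replicate 2 with tamoxifen on day 6, with a median correlation of 0.967 with the other day 6 arrays, and replicate 2 without tamoxifen on day 1, with 0.984. The other 10 arrays had 0.989 to 0.995. The 2 arrays deviated in opposite directions and by the GC content of the probe. On probes of over 60% GC the day 6 array lay below the others of its day (median -0.09) and the day 1 array above (0.11), while under 35% GC the medians were 0.16 and -0.12. Of 136 probes on which that day 6 array was off by 2-fold or more, 92 were off by over 0.5 in the opposite direction on the day 1 array and 0 in the same direction. Without both arrays 10213 probes rose and 9918 fell between day 1 and day 6, 1691 and 894 of them by 2-fold or more. In probes of over 60% GC the share called lower on day 6 was 46.0% with and 29.6% without them.

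The largest changes belonged to probes without a gene name. Probe Z00022892-1 had log2 ratios of 4.73, 4.67, 4.42 and 4.49 on day 6, against -0.72, -1.09, -0.60 and -0.61 on day 1, a 40.3-fold rise (log2 change 5.33, SE 0.07, limma adjusted p = 2.04e-25). Probe Z00053640-1 had 3.27, 2.97, 2.71 and 2.96 on day 6 and -1.82, -1.73, -1.57 and -1.56 on day 1, a 25.1-fold rise (adjusted p = 1.86e-19). Both were MEF-high, with log2 differences of ES cells minus wild MEFs of -9.36 and -4.11. On day 3 they had means of 2.37 and -0.64, so most of the first change had come by then and little of the second. In the additive slide fit the change of Z00022892-1 between day 3 and day 1 was 1.34 and not called (limma adjusted p = 0.105). That fit averages over doxycycline, and the day 6 minus day 1 change of this probe was higher by 4.78 without doxycycline than with it. Slide and averaging therefore cannot be told apart here.

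The largest fall was that of Z00016667-1, an ES-high probe. It had -2.33, -2.36, -2.50 and -2.30 on day 6 and 0.89, 0.69, 0.87 and 0.87 on day 1, 9.22-fold lower on day 6 (log2 change -3.20, SE 0.05, limma adjusted p = 4e-25). Probe Z00041156-1 followed with a log2 change of -3.05, but its reference signal also fell, by 1.33 on the log2 scale (adjusted p = 7.05e-13 in the reference channel). Its mean brightness in the culture channel was 184 on day 6 and 3140 on day 1.

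Of the 305 placed probes 45 rose and 72 fell between day 1 and day 6. That is 38.4% called, against 52.0% of all probes. Of the placed probes, 204 were well above background on all arrays of day 6 or of day 1, and 55.4% of these were called, against 70.6% of all probes measured so. Without the 2 arrays that stood apart, 43 rose and 57 fell. The 12 rising and 12 falling genes with the largest changes and separated days are described next.

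The rising genes included Podxl2 at the cell surface, Lamb2 in the matrix and the receptor subunit Il17rc. Fam180a, a gene of the FAM180 family, had log2 ratios of 0.32, 0.52, 0.53 and 0.93 on day 6, against -1.53, -1.66, -1.41 and -1.75 on day 1, a 4.47-fold rise (log2 change 2.16, SE 0.08, limma adjusted p = 7.11e-18). No day 6 value came near the day 1 values, and the day 3 values, -0.21 to -0.29, lay between them. Podxl2, which encodes the cell surface sialomucin endoglycan, had 1.58, 1.49, 1.56 and 1.42 on day 6 and 0.32, 0.33, 0.32 and 0.29 on day 1, a 2.30-fold rise (log2 change 1.20, SE 0.04, adjusted p = 1.57e-17). Its 4 arrays of a day agreed closely. Its reference signal was also higher on day 6, by 0.38 on the log2 scale, which lowers the ratio.

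Lamb2, the laminin β2 chain of basement membranes, had 1.30, 1.37, 1.14 and 1.25 on day 6 and 0.37, 0.56, 0.31 and 0.33 on day 1 (log2 change 0.87, SE 0.05, limma adjusted p = 6.25e-14). Its day 3 mean of 0.83 was midway. Renbp, an epimerase of amino sugars that also binds renin, rose by 0.85, with 0.43 to 0.55 on day 6 and -0.48 to -0.23 on day 1. Unc13b, which primes secretory vesicles for fusion, rose by 0.76. C1qtnf3, a secreted protein related to complement C1q, had a mean level of 2.96 ± 0.15 on day 6 and 2.25 ± 0.21 on day 1 (SD, n = 4 each). Its change of 0.71 depended on the scaling, and its reference signal also rose, by 0.63. The change was 0.18 and not called with Feature Extraction's own ratios and -0.048 with the authors' series matrix.

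Il17rc, a subunit of the receptor for interleukin 17, had -0.21, -0.18, -0.21 and -0.15 on day 6 and -0.88, -0.84, -0.88 and -0.92 on day 1 (log2 change 0.69, SE 0.03, limma adjusted p = 2.22e-15). Its values within a day lay close together, and the change was many times their SD of 0.03. Adam8, a membrane-bound metalloprotease, rose by 0.67, with 0.72, 0.91, 0.84 and 1.32 on day 6 and 0.39, 0.13, 0.29 and 0.31 on day 1, and it was dim, with mean brightness 87.2 and 58.6. H2bc11, a histone H2B gene, rose by 0.71, and the remaining 3 were Crxos (0.73), Gm6592 (0.62) and Frg2f1 (0.61). In the additive slide fit, which averages over doxycycline, C1qtnf3, Adam8 and Frg2f1 were no longer called (0.01, 0.27 and 0.02), and with doxycycline alone their changes were -0.69, -0.13 and -0.57. Of these 12 genes Fam180a, Podxl2, Lamb2, Crxos, C1qtnf3 and Il17rc carried MEF-high probes, and none carried an ES-high one.

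The falling genes included Rpl38 and Fau of the ribosome, Snrpf and Snu13 of splicing particles and the nucleolar Gnl3. Rpl38, a protein of the large ribosomal subunit, had -1.28, -1.45, -1.23 and -1.69 on day 6, against -0.26, -0.24, -0.24 and -0.19 on day 1, 2.26-fold lower on day 6 (log2 change -1.18, SE 0.06, limma adjusted p = 8.71e-15). A second probe in the gene gave -1.10 (SE 0.07), but it overlaps the first over most of its length and is not independent of it. Without the 2 arrays that stood apart the 2 probes of Rpl38 gave -1.06 and -0.97. Fau, which encodes ribosomal protein S30 fused to a ubiquitin-like protein, had -1.26, -1.28, -1.23 and -1.24 on day 6 and -0.35, -0.33, -0.36 and -0.34 on day 1 (log2 change -0.91, SE 0.03, adjusted p = 9.5e-19). Its second probe gave -0.56, and -0.31 without the 2 arrays that stood apart, where the first gave -0.90. The second was not called in the additive slide fit (-0.41, limma adjusted p = 0.0648).

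Snrpf, an Sm protein of the spliceosomal particles, had -0.34, -0.54, -0.37 and -0.88 on day 6 and 0.29, 0.30, 0.23 and 0.44 on day 1 (log2 change -0.85, SE 0.07, limma adjusted p = 1.26e-10). Snu13, which binds U4 and box C/D RNAs, fell by 0.81, and Gnl3, the nucleolar GTPase nucleostemin, fell by 0.79. Gnl3 had -0.60, -0.82, -0.67 and -1.03 on day 6 and -0.05, 0.07, -0.10 and 0.12 on day 1. In Snrpf, Snu13 and Gnl3 the lowest day 6 value came from the array with tamoxifen that stood apart. Without both such arrays the falls were 0.71, 0.58 and 0.67, with adjusted p between 4.7e-08 and 2.4e-10.

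Kif22, Cdca7 and Dclre1b, which act in cell division or at telomeres, fell too. Kif22, a kinesin that binds chromosomes at mitosis, had -1.11, -1.10, -1.03 and -0.97 on day 6 and -0.34, -0.28, -0.30 and -0.37 on day 1 (log2 change -0.73, SE 0.05, limma adjusted p = 8.83e-13). Cdca7, a cell division gene that responds to Myc and E2F, fell by 0.75, with -1.13 to -0.89 on day 6 and -0.40 to 0.04 on day 1, and by 0.61 without the 2 arrays that stood apart. Dclre1b, the Apollo nuclease that protects telomeres, had a mean of -1.82 ± 0.03 on day 6 and -0.98 ± 0.04 on day 1 (SD, n = 4 each). Taldo1, transaldolase of the pentose phosphate pathway, fell by 0.75 and by 0.55 without the 2 arrays. Homer2, a scaffold protein, fell by 0.67, and the other two were Gm52042 (-0.78) and Gm3194 (-0.67). In the additive slide fit Homer2 had -0.07 and was not called, and that fit averages its changes of -0.67 without and 0.53 with doxycycline. Probes in Rpl38, Gnl3 and Gm3194 were ES-high, and no probe of the 12 was MEF-high.

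**Figure D2:**
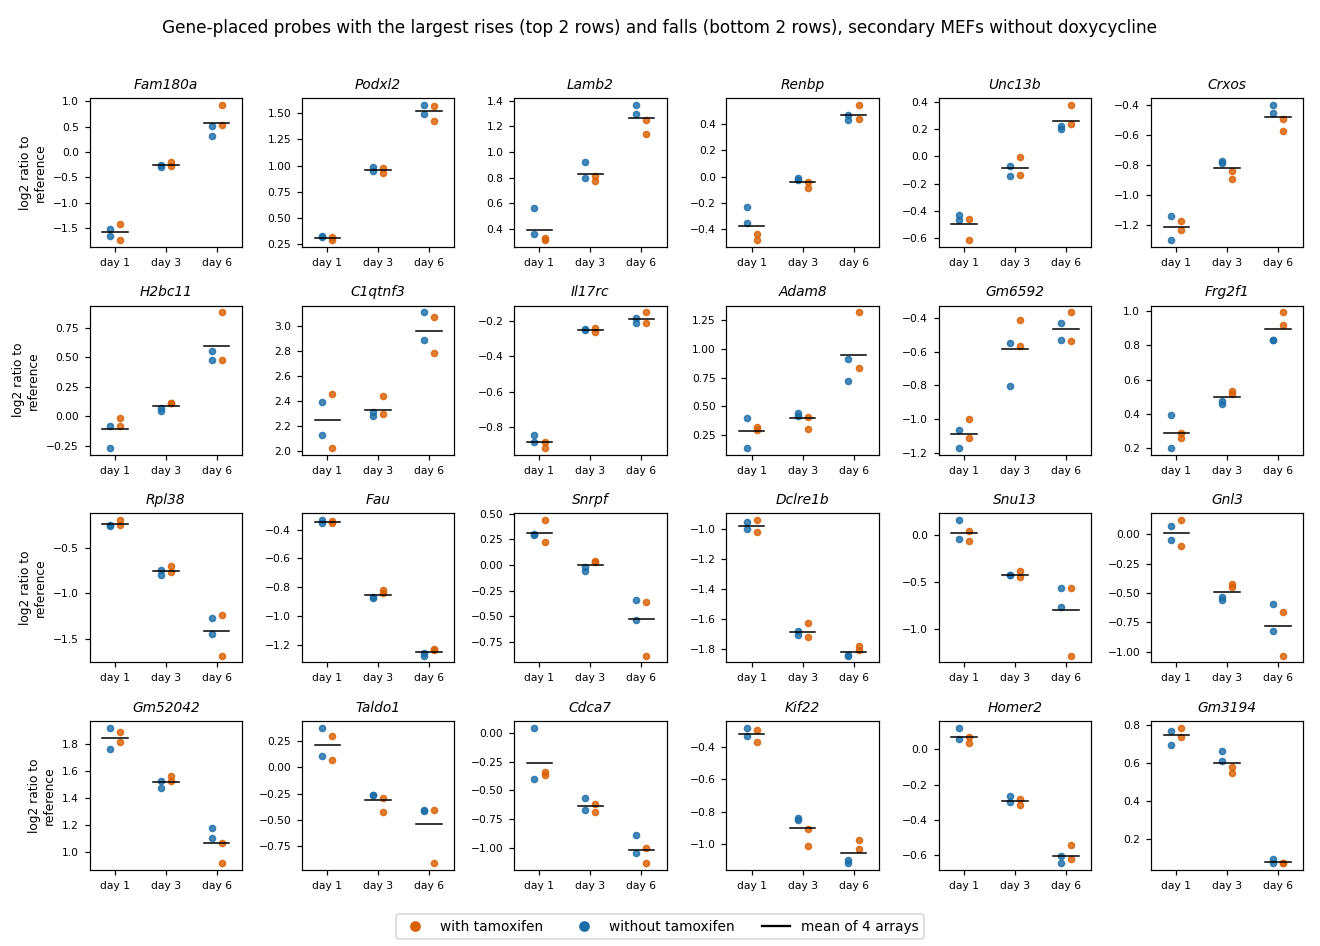
Log2 ratio to the common reference (vertical axes differ between panels) on days 1, 3 and 6 for the 12 rising (top 2 rows) and 12 falling genes (bottom 2 rows); each point is 1 array, coloured by tamoxifen, and bars are means of 4. Day 6 and day 1 do not overlap in any panel, and for Snrpf, Snu13, Gnl3 and Taldo1 1 day 6 array with tamoxifen lies below the other 3.

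The placed probes were also grouped by their symbols, after their values had been seen. Of 7 probes in 5 ribosomal protein genes 6 fell and 1 rose, against 26.1% and 25.8% of all probes. The 2 probes of Rpl38 overlap each other, as do the 2 of Fau, so the 7 are not independent. The riser was Rps27rt (0.31). The falls of Rpl38 and Fau were given above, Rps27l fell by 0.34 and Rpl10a by 0.76. Without the 2 arrays that stood apart Rps27l had -0.20. The fall of Rpl10a rested on 1 array: its day 6 values were 0.52, 0.08, 0.57 and -1.25, and without the 2 arrays that stood apart it was -0.17 (limma adjusted p = 0.33). Cfap410 and Sord, also picked after their values were seen, did likewise, with changes of -1.34 and -0.87 on all arrays and of -0.07 and -0.17, no longer called, without the 2.

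Of all probes 52.0% were called, 25.8% as higher and 26.1% as lower, and no class below was tested as standing apart from them. Of 8 histone probes, 2 rose (H2bc11 and H2ac18), 2 fell (H3f3a by 0.30 and H4c3 by 0.27) and 4 were not called. Of 4 probes in subunits of mitochondrial complex I, Ndufa11 rose by 0.35, and Ndufa9, Ndufa13 and Ndufb11 were not called, with values between 0.02 and 0.08. Of 9 zinc finger genes Zbtb22, Zfp433 and Zfp512b rose, by 0.22 to 0.32, and none fell. Chemosensory receptors, which fibroblasts are not known to use, gave 1 call among 32 probes, Olfr521 at 0.11, and 7 of the 32 were well above background on all arrays of a day.

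**Figure D3:**
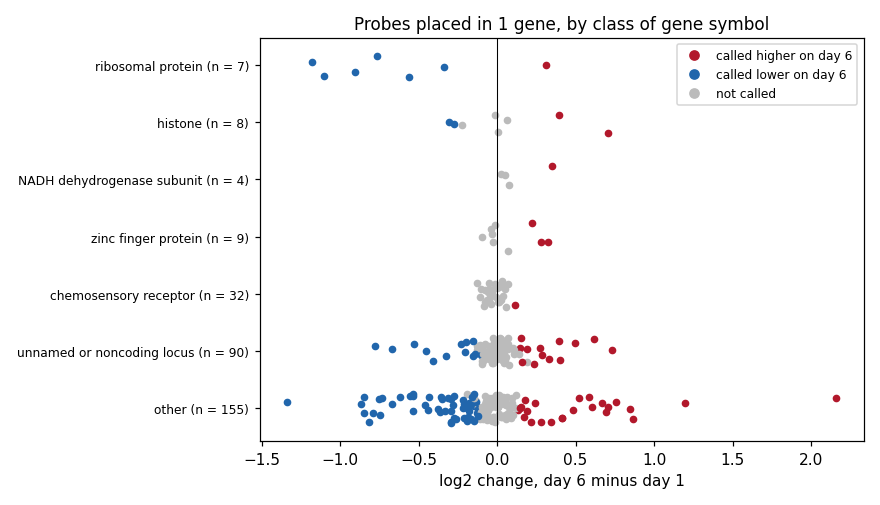
Log2 change, day 6 minus day 1, of the 305 placed probes (1 point each) by class of gene symbol, coloured by call. Of the 7 ribosomal protein probes 6 lie below 0 and 1 above, and the 32 chemosensory receptor probes stay close to 0.

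Of 1095 genes in pathway and cell type lists drawn up for this tissue, 11 had a placed probe, too few for a count by pathway, and they are given singly. Lamb2 and Gnl3 were described above. Actg1, cytoplasmic gamma actin, fell by 0.54 (limma adjusted p = 2.46e-06), and by 0.35 without the 2 arrays. Acta2, the smooth muscle actin of contractile fibroblasts, had 0.83, 1.13, 0.83 and 1.13 on day 6 and 1.04, 0.96, 0.92 and 0.77 on day 1, and these overlap (log2 change 0.06, adjusted p = 0.588). Mif, a cytokine that inhibits macrophage migration, fell by 0.29. Prdx1, a peroxide-reducing enzyme, fell by 0.55 at 1 probe (0.34 without the 2 arrays) and by 0.19 at another, which was no longer called without day 6 replicate 1 with tamoxifen (-0.14, adjusted p = 0.0518) or with normexp background correction (-0.15, adjusted p = 0.0764). Neither Prdx1 probe was called in the additive slide fit (-0.27 and -0.22, adjusted p = 0.267 and 0.0952).

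Pax7, a factor of muscle stem cells, had a fall of 0.62, but its reference signal was also lower on day 6, by 0.50 on the log2 scale, and without the 2 arrays the fall was 0.38. Gstp1, a glutathione transferase, and Ndufa9 were measured on every array and not called (0.02 and 0.05). The heat shock gene Hspa1a and the adipocyte hormone Retn were not well above background on any array of day 6 or day 1.

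The MEF-high probes were mostly higher and the ES-high probes mostly lower on the later days. Of the 2574 MEF-high probes 1877 rose (72.9%) and 414 fell (16.1%) between day 1 and day 6, against 25.8% and 26.1% of all probes, and 916 rose by 2-fold or more while 57 fell. Their median change was 0.63, and the median over all probes was -0.01. Of the 1218 ES-high probes 167 rose (13.7%) and 706 fell (58.0%), with a median of -0.19. Without the 2 arrays that stood apart 1840 MEF-high probes rose and 408 fell, and 170 ES-high probes rose and 567 fell.

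The median level of the MEF-high probes was 0.44 to 0.53 on the single arrays of day 1, 0.78 to 0.80 on those of day 3 and 1.08 to 1.14 on those of day 6. Every day 6 array thus lay above every day 3 array, and those above every day 1 array. Untreated wild MEFs had a median of 1.18, untreated Zscan4ERT2 MEFs 1.21 and ES cells -1.90. The ES-high probes had medians of -2.09 to -2.01 on day 6 and of -1.78 to -1.68 on day 1, with -1.68 in wild MEFs and 1.14 in ES cells. The median of the MEF-high probes was thus nearest to that of primary MEFs on day 6, and that of the ES-high probes on day 1.

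**Figure D4:**
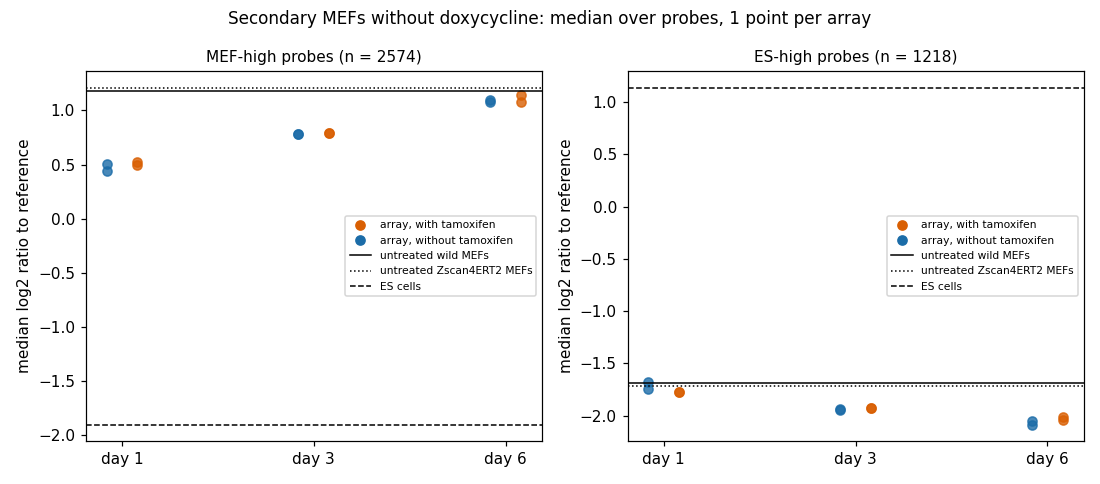
Median log2 ratio to reference of the MEF-high (left) and ES-high probes (right) on each of the 12 arrays by day, coloured by tamoxifen, with the medians in untreated primary MEFs and ES cells as lines. MEF-high medians are 1.08 to 1.14 on day 6 and 0.44 to 0.53 on day 1, where wild MEFs have 1.18.

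The same counts can also be given as shares of the changing probes, which is no further evidence. Of the 1780 probes that rose by 2-fold or more, 51.5% were MEF-high and 1.07% ES-high, against 6.13% and 2.90% of all probes. Of the 908 that fell as much, 6.28% were MEF-high and 19.6% ES-high. In untreated wild MEFs, 940 of the 1780 had a level above both days, 789 a level between them and 51 one below both. Of the 908 falling probes 379 lay below both days in wild MEFs, 515 between and 14 above. Over all probes 26.2% lay between and 33.9% below, and the rest above. In Zscan4ERT2 MEFs 895 of the 1780 lay above both days and 338 of 907 falling probes below. The primary MEFs, labelled as F1 hybrids from V6.5, lay on other slides and, per their protocols, grew in MEF medium, so neither slide nor medium can be told apart from the cell source here.

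Detection also differed between the days. Of all probes, 284 were well above background on all 4 day 6 arrays and on none of the 4 day 1 arrays, and 62 were the reverse. Of the 284, chosen on days 6 and 1, 102 were detected on all 4 arrays of day 3 and 49 on none of them. In the probes' own letters, AATAAA stood in 10.6% of the probes that rose by 2-fold or more, in 6.61% of those that fell and in 6.93% of all, searched on the probe strand. The median GC content was 43.3% in all 3 sets. A further check came from 35 pairs of probes with identical sequence. Their 2 changes differed by a median of 0.05 and at most 0.20, and 9 of the 35 pairs were well above background. In 6 pairs both probes were called, in the same direction, in 3 pairs 1 probe, and in 26 neither.

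Probes were called both before and after day 3, with large differences between fits. Between day 3 and day 1, 9226 probes were higher (22.0%) and 9278 lower (22.1%), 44.1% in all, and 476 (1.13%) and 261 (0.621%) differed by 2-fold or more. Between day 6 and day 3, which were scanned on the same day, 8110 were higher (19.3%) and 7427 lower (17.7%), 37.0% in all, and 605 (1.44%) and 88 (0.209%) differed by 2-fold or more. In the additive slide fit there were 7374 calls between day 3 and day 1, with 150 falls of 2-fold, and 3937 between day 6 and day 3, with 163 rises and 39 falls of 2-fold. These comparisons share arrays, so their lists are not set against each other. The reference channel gave 309 calls between day 6 and day 3 and 1005 between day 3 and day 1. The median change of the MEF-high probes was 0.28 from day 1 to day 3 and 0.29 from day 3 to day 6, and that of the ES-high probes was -0.17 and -0.05.

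The named genes took different courses to day 6. Il17rc had -0.25 on day 3, a change of 0.63 against day 1 (limma adjusted p = 4.38e-14) and of 0.06 from day 3 to day 6 (adjusted p = 0.166). Dclre1b likewise had -0.71 of its fall by day 3 and -0.13 after it. C1qtnf3 and Adam8 did the opposite, with 0.08 and 0.11 by day 3, neither called, and 0.63 and 0.56 from day 3 to day 6. Fam180a, Podxl2, Lamb2, Rpl38, Fau and Homer2 changed in both intervals.

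By the comparison of day 3 with day 1, further genes are Bcl11a, a zinc finger repressor, with 0.03, 0.12, 0.12 and 0.11 on day 3 and -0.26, -0.28, -0.20 and -0.34 on day 1 (log2 change 0.36, limma adjusted p = 2.06e-08), Ntng1, a netrin (0.39), H2ac18, a histone H2A gene (0.40), and Gm9828 (0.48). On the falling side were Abhd6, a hydrolase of monoacylglycerols (-0.35), Adk, adenosine kinase (-0.35), Psd4, an exchange factor of Arf6 (-0.39), and Pitpnm2 (-0.34). Pitpnm2 was no longer called without day 1 replicate 2 without tamoxifen (-0.19, limma adjusted p = 0.184), without day 1 replicate 2 with tamoxifen (-0.32, adjusted p = 0.0556) or without day 3 replicate 1 without tamoxifen (-0.32, adjusted p = 0.0521). With Feature Extraction's ratios Pitpnm2 was not called either (-0.45, adjusted p = 0.0783). Ntng1 was not called with normexp background correction (0.36, adjusted p = 0.153). In the additive slide fit, of these 8 genes Adk alone was called, and Bcl11a, Ntng1 and Abhd6 had -0.23, -0.03 and 0.17. That fit averages over doxycycline, by which the day 6 minus day 1 change of these 3 differed, so slide and averaging cannot be told apart in their turned signs.

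Between day 6 and day 3, Cyba, a subunit of the phagocyte-type NADPH oxidase, rose by 0.64, with 0.60, 1.23, 0.79 and 1.12 on day 6 and 0.28, 0.54, 0.21 and 0.16 on day 3 (limma adjusted p = 4.27e-05). S100a7a rose by 0.47, Mllt6 by 0.30 and Zbtb22 by 0.29. Gm11295 fell by 0.57, Ciao2b, a factor of cytosolic iron-sulphur cluster assembly, by 0.31, and Mff, which recruits the mitochondrial fission machinery, by 0.30. Pax7 had a value of -0.32, which was no longer called without day 6 replicate 2 with tamoxifen (-0.20, adjusted p = 0.0595). The reference signal of Pax7 also changed between these days, by -0.89 on the log2 scale. In the additive slide fit none of these 8 genes was called, with values between -0.45 and 0.64.

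Some probes were highest or lowest on day 3. Against the mean of days 1 and 6, 5849 probes were higher on day 3 (13.9%) and 6360 lower (15.1%), 29.1% in all, but 22 (0.0524%) and 39 (0.0928%) by 2-fold or more. The additive slide fit gave 758 calls, 529 higher and 229 lower. Probe Z00026305-1 had 2.21, 2.06, 2.30 and 2.24 on day 3, against 0.59, 0.56, 0.65 and 0.34 on day 1 and 0.55, 0.51, 0.86 and 0.83 on day 6 (log2 difference 1.59). Probe Z00076292-1 had -1.29, -1.20, -1.04 and -1.09 on day 3, below its 1.08 to 1.60 on day 1 and 0.41 to 0.54 on day 6 (log2 difference -2.07). No array of day 3 overlapped another day in either probe.

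Among placed genes such differences were small. Sec61b, of the translocon that passes proteins into the endoplasmic reticulum, was higher on day 3 than the mean of the other days by 0.24, Appbp2os by 0.26, Stard13 by 0.24 and H4c8, a histone H4 gene, by 0.16. Rab7, the late endosome GTPase, was lower by 0.24 and Gm833 by 0.19. The second probe of Stard13 did not peak on day 3. In the culture channel alone it changed by -0.30 from day 1 to day 3 and by -0.05 from day 3 to day 6. The first probe had 0.19 and -0.35 there. H4c8 was no longer called without day 3 replicate 2 without tamoxifen (0.14, limma adjusted p = 0.0737), its second probe was lower by 0.10, and none of the 6 was called in the additive slide fit. With normexp background correction H4c8 was not called either (adjusted p = 0.0581). Neither H4c8 nor Gm833 was called with Feature Extraction's ratios (adjusted p = 0.059 and 0.121) or in the culture channel alone (0.158 and 0.227). Each day lies on a slide of its own, so these differences cannot be told apart from the slide.

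No difference in the time change by tamoxifen was called. In cultures labelled with tamoxifen limma called 9538 rising (22.7%) and 8915 falling probes (21.2%), 43.9% in all, of which 1829 (4.35%) and 975 (2.32%) reached 2-fold. In cultures without it 9515 rose (22.7%) and 9466 fell (22.5%), 45.2% in all, 1748 (4.16%) and 895 (2.13%) by 2-fold. The difference between both changes was called at 0 probes, with 2301 (5.48%) at an unadjusted p under 0.05. With Feature Extraction's ratios it was called at 10 probes, and with the series matrix at 145. Leaving out 1 array gave 0 to 620 calls, the 620 without day 6 replicate 1 with tamoxifen and at most 27 without any other array. Replicate 2 is then the only day 6 array with tamoxifen, and it stood apart by GC content.

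On other arrays of the same clone the cultures had doxycycline (1.5 µg/ml). A like number of probes was called between day 6 and day 1, 21838 without and 22695 with doxycycline. With it 11618 probes rose (27.7%) and 11077 fell (26.4%) between day 1 and day 6, 54.0% in all, and 1984 (4.72%) and 1033 (2.46%) did so by 2-fold or more. Of the 1780 probes that rose by 2-fold without doxycycline 489 did so with it, 27.5% of this list and 24.6% of the list with doxycycline. Of the 908 falling ones 290 were shared, 31.9% and 28.1%. In the opposite direction 121 of the 1780 fell by 2-fold with doxycycline and 20 of the 908 rose. The difference between both time changes, tested as an interaction, was called at 18825 probes (44.8%), with 8886 (21.2%) higher and 9939 (23.7%) lower without doxycycline, 1650 (3.93%) and 1586 (3.78%) of them by 2-fold or more. For each day, the doxycycline cultures were on a slide apart from the uninduced ones.

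The MEF-high and ES-high probes separated the 2 courses. The median change of the MEF-high probes was 0.63 without doxycycline and 0.09 with it, where 1224 rose and 968 fell. That of the ES-high probes was -0.19 without doxycycline and 0.07 with it, where 557 rose and 416 fell. Probes Z00025746-1 and Z00024473-1 had the largest rises without doxycycline relative to those with it. Z00025746-1 had 5.04, 5.13, 4.95 and 5.19 on day 6 and 1.60, 1.33, 1.53 and 1.48 on day 1 without doxycycline, a change of 3.59, against -1.85 with it. Z00006684-1 and Z00003486-1 were at the other end, with -0.49 and -1.13 without and 5.11 and 4.46 with doxycycline.

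Among placed genes no difference by doxycycline was called for the falls of Rpl38, Fau, Dclre1b, Gnl3 and Kif22. Rpl38 had changes of -1.18 without and -1.15 with doxycycline, and Fau -0.91 without and -0.90 with it (limma adjusted p of the difference 0.867 and 0.937). Fam180a and Podxl2 rose by 2.16 and 1.20 without doxycycline, against changes of 0.28 and 0.17 with it (adjusted p of the difference 1.99e-13 and 6.18e-13). Lamb2 and Crxos rose by 0.87 and 0.73 without doxycycline, less than with it (1.67 and 1.48). Bcl11a had 0.41 without and -1.30 with doxycycline, S100a7a 0.18 without and -1.57 with it, Homer2 -0.67 without and 0.53 with it, and Abhd6 -0.53 without and 0.38 with it. The 0.18 of S100a7a was 0.06 and not called without the 2 arrays that stood apart. Its reference signal changed by -0.26, and in the culture channel alone S100a7a had -0.20 without doxycycline. Plet1, a surface protein of early epithelial and placental progenitors, had a change of 0.07 without doxycycline and rose by 3.78 with it. Of its day 6 values without doxycycline, -1.07, -2.55, -2.42 and -2.43, the first stood apart.

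**Figure D5:**
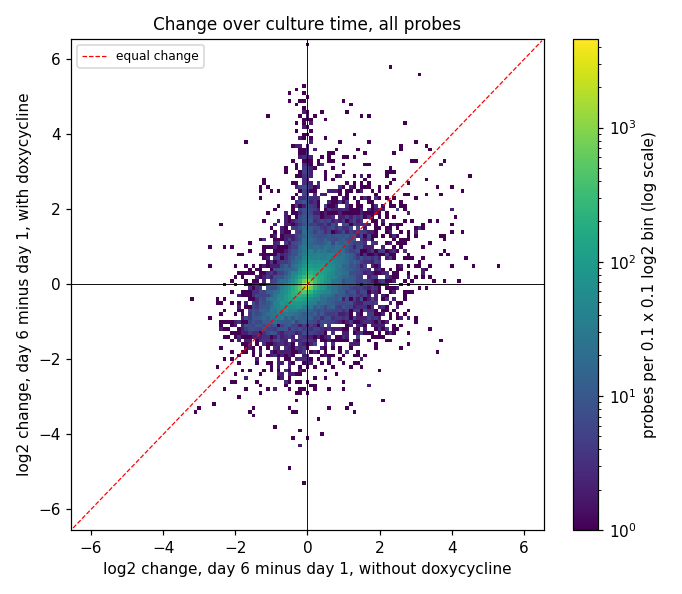
Log2 change, day 6 minus day 1, of all probes without doxycycline (horizontal) and with doxycycline (vertical), as counts per bin on a log colour scale; the dashed line marks equal change. Many probes lie off the line, and the difference was called at 18825 of them.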

How the data were processed

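RNA of each culture was labelled with Cy3 and hybridized against a Cy5-labelled common reference on 2-colour Agilent arrays, without dye swap. The deposited scanner files hold mean spot intensities, and log10 ratios that Agilent Feature Extraction wrote beside them (the file headers give version 9.5.1.1). The deposited series matrix holds part of the probes on a log10 scale. It correlated at 0.952 to 0.981 with log10 of the unsubtracted culture signal, with column medians of 2.37 to 2.46, so it follows the culture channel, while its exact scaling stays unknown.

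Mean intensities without background subtraction were loess-normalized within each array and turned to log2 culture over reference. Control spots were left out, 302 values flagged as non-uniform were set missing, and spots of a probe were averaged to 42006 probes. All 36 arrays were fitted with limma 3.58.1 in R 4.3.3 with 1 mean for each of 18 groups and 18 residual degrees of freedom. A call is a Benjamini-Hochberg adjusted p under 0.05. Day contrasts average the groups with and without tamoxifen. On simulated data for day 6 minus day 1, limma called 98 of 100 probes given a log2 change of 0.5, all 100 given a change of 1, and 12 of the unchanged among 42006. The simulated noise was drawn independently for each array, without any slide effect. These counts therefore do not cover differences that the arrays of a slide share.

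Probes were placed in genes by matching at least 25 bases to RefSeq promoter windows of GRCm38.p6. This route was chosen after the files had been seen, since they name no genes, and 11 of 1095 listed genes were reached, so gene lists and other cell types' markers could not be counted. Named are the 12 largest rises and falls between day 6 and day 1, and the 4 largest each way in the other day comparisons, among called, placed probes well above background on the higher day whose days do not overlap, the 3 largest each way by doxycycline, and listed genes. At most 2 unplaced probes each way are given by ID. The samples, lists and symbol classes were chosen with earlier results of these data known.

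The 36 arrays lay on 11 slides scanned on 5 days. Replicate numbers did not pair the samples: deviations of same-numbered arrays correlated between -0.59 and 0.45 over 15 pairs of groups. Alternatives were background correction (normexp, offset 50), Feature Extraction's ratios, the series matrix, the culture channel alone, a filter on dim probes, the 12 arrays alone, an intensity trend, a replicate block, a slide block in an additive fit of day, doxycycline and tamoxifen over the 24 secondary MEF arrays, and each of the 12 arrays left out. Leaving out the 2 arrays that stood apart was chosen after seeing the data.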

Additional observations from a re-analysis of the deposited data

Results flagged for a closer look

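The time change differed by doxycycline, tested as an interaction in limma, at 18825 probes (44.8% of all) and at 49 of the 76 named probes examined. Some of these were named because they had the largest differences by doxycycline, so the count of 49 is no separate evidence. The log2 differences, day 6 minus day 1 without doxycycline minus the same with it, were positive for placed genes Fam180a (1.88), Podxl2 (1.02), Renbp (0.44), Unc13b (0.76), H2bc11 (0.33), C1qtnf3 (1.40), Adam8 (0.80), Frg2f1 (1.18), Gm52042 (0.38), Gm3194 (0.74), Gm9828 (0.34), Ntng1 (0.97), Bcl11a (1.72), Cyba (0.85), S100a7a (1.75), Sec61b (0.40), H4c8, probe Z00074088-1 (0.32), Mif (0.27) and Acta2 (0.55). They were negative for Lamb2 (-0.80), Crxos (-0.75), Snrpf (-0.35), Snu13 (-0.40), Taldo1 (-0.52), Cdca7 (-0.46), Homer2 (-1.20), Abhd6 (-0.91), Mllt6 (-0.29), Gm11295 (-0.65), Appbp2os (-0.32), Plet1 (-3.71), Ndufa9 (-0.15), Prdx1, probe Z00060544-1 (-0.56) and H4c8, probe Z00038251-1 (-0.21). Among probes without a gene name they were Z00022892-1 (4.78), Z00053640-1 (4.12), Z00016667-1 (-2.76), Z00041156-1 (0.39), Z00012935-1 (2.37), Z00031819-1 (0.29), Z00023200-1 (2.94), Z00028536-1 (-1.19), Z00076258-1 (-0.36), Z00026305-1 (0.99), Z00017053-1 (-1.04), Z00025746-1 (5.44), Z00024473-1 (5.16), Z00006684-1 (-5.599) and Z00003486-1 (-5.59). Each day with and without doxycycline had a slide of its own, so doxycycline and slide cannot be told apart.

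The common reference, which holds the same RNA on every array, gave 1114 calls between day 6 and day 1. Its changes were given above for Podxl2, C1qtnf3, Pax7 and Z00041156-1. Between day 6 and day 1 it was also called for Renbp (0.20), Unc13b (0.17), Lamb2 (0.12), Actg1 (0.16), S100a7a (-0.26) and Z00031819-1 (-1.37).

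Of 228 groups of 4 arrays (76 probes on 3 days), 20 held 1 array whose log2 ratio lay far from the other 3, with a gap of over 0.829 of the group's range. Chance flags about 1 in 20 such groups. On day 6 replicate 2 with tamoxifen this held for Taldo1 (-0.92, others -0.42 to -0.41), H2ac18 (0.40, others 0.86 to 0.93), S100a7a (1.31, others 0.95 to 1.00), Z00041156-1 (-0.28, others -0.70 to -0.66), Z00012935-1 (4.85, others 4.32 to 4.37) and Z00031819-1 (0.72, others 0.15 to 0.21). On day 1 replicate 2 without tamoxifen this held for Cdca7 (0.044, others -0.40 to -0.34), Sec61b (0.38, others 0.52 to 0.55), Z00016667-1 (0.69, others 0.87 to 0.89) and Mif (-0.29, others -0.43 to -0.41). On day 3 replicate 2 with tamoxifen this held for Taldo1 (-0.43, others -0.29 to -0.27) and Abhd6 (0.18, others 0.16 to 0.16). On day 6 replicate 1 without tamoxifen this held for Gm3194 (0.095, others 0.07 to 0.07) and Plet1 (-1.07, others -2.55 to -2.42). On day 3 replicate 2 without tamoxifen this held for Z00041156-1 (-0.19, others 0.05 to 0.08) and Acta2 (0.83, others 0.52 to 0.55). On day 3 replicate 1 without tamoxifen this held for Bcl11a (0.033, others 0.11 to 0.12). On day 3 replicate 1 with tamoxifen this held for Ciao2b (-0.052, others -0.12 to -0.11). On day 6 replicate 2 without tamoxifen this held for Z00076292-1 (0.41, others 0.53 to 0.54). On day 1 replicate 1 without tamoxifen this held for Z00076258-1 (0.30, others 0.24 to 0.24). Some of these gaps were small, as the ranges show.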

How the results depend on the processing

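The 86 values of named probes were recomputed under the alternatives, 1919 values in all, and 1866 kept direction and side of the threshold, 44 lost the call, 4 gained one and 5 changed sign. The 5 were C1qtnf3 with the series matrix (-0.048) and, in the additive slide fit, Ntng1 (-0.027), Bcl11a (-0.23) and Abhd6 (0.17) for day 3 minus day 1 and Stard13 (-0.004466) for day 3 against the other days. Of the 2688 probes changed by 2-fold or more, at least 99.4% of those present kept their call and direction in each setting but the additive slide fit, where 2173 did (80.8%).

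With the series matrix, which holds fewer probes, the calls were 13987 (day 6 minus day 1), 11761 (day 3 minus day 1), 9902 (day 6 minus day 3), 8123 (day 3 against the other days), 12346 and 12004 (day 6 minus day 1 without and with tamoxifen), 14556 (with doxycycline), 12132 (difference by doxycycline) and 145 (difference by tamoxifen). For the first 4 of these comparisons the matrix called a larger share of its probes than the main fit did. The matrix's 2-fold calls were 750 up and 402 down for day 3 minus day 1 and 194 down for day 6 minus day 3. The additive slide fit (consensus correlation 0.553) changes the block, the arrays and the doxycycline terms together, and its calls were 12481, 7374, 3937 and 758 for the first 4 comparisons, with 150 falls of 2-fold for day 3 minus day 1 and 163 rises and 39 falls for day 6 minus day 3. Feature Extraction's ratios gave 3045 rises and 1961 falls of 2-fold for day 6 minus day 1, 1395 and 759 for day 3 minus day 1, 1222 and 560 for day 6 minus day 3, and 10 calls by tamoxifen. What caused the differences between these settings was not tested.

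Leaving out 1 array gave 20475 to 22097 calls for day 6 minus day 1 (1716 to 1876 rises and 871 to 1030 falls of 2-fold), 16744 to 19407 for day 3 minus day 1 (446 to 505 and 246 to 274), 13703 to 16746 for day 6 minus day 3 (563 to 659 and 81 to 127), 9664 to 13615 for day 3 against the other days, 16121 to 19869 without and 15999 to 18861 with tamoxifen, 22548 to 23388 with doxycycline, 17920 to 20070 by doxycycline and 0 to 620 by tamoxifen, where leaving out both arrays that stood apart gave 25. A replicate block gave 21571 calls for day 6 minus day 1 and changed no named call. Dim probes limit what can be seen, since each array measured 67.1% to 74.2% of probes well above background.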
